A study of Mus musculus with 5 samples.

Results

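The mitosis genes described here are 40 genes whose products run the last phase of the cell cycle, from entry into mitosis to the separation of the daughter cells. They were taken by symbol from a table of RPKM (reads per kilobase of a transcript's length, relative to the reads of the library) for 26531 RefSeq transcripts of 22098 symbols. All 40 were in the table, and 7 of them had more than 1 transcript, of which the one with the highest mean over the libraries was used. The 5 RNA-seq libraries came from bone marrow cells of C57BL/6 mice aged 6 to 7 weeks, sorted as Hardy fraction A, which that scheme places first in the B lineage, without depleting other lineages. The dF4 group (genotype Ikaros ZnF4-/-, a mutant of zinc finger 4) had 1 library of low coverage, the dF1 group (Ikaros ZnF1-/-, a mutant of zinc finger 1) had 2 libraries that the design text calls biological replicates, and wild type (wt) had 2. Ikaros is a DNA-binding regulator that lymphocytes need for their development, and Ikzf1 is its gene. Nothing in the labels shows that the wt libraries are from different mice, so the spread between them may be technical. The p-values cover the spread among these samples alone. The labels do not give the number of mice behind each library.

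Entry into mitosis is driven by the kinase Cdk1 bound to cyclins A and B, while Polo and Aurora kinases mature the centrosomes and build the spindle. The spindle checkpoint holds the anaphase-promoting complex inactive until every kinetochore is attached, after which Cdc20 lets that complex destroy cyclin B and free separase. Most of these genes are transcribed late in the cell cycle and shut down in resting cells. In bone marrow, cycling cells are frequent among erythroid, myeloid and B lineage precursors and rare among mature plasmacytoid dendritic and NK cells.

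The promoters of such genes are known to carry the cell cycle genes homology region (CHR), which the MuvB complexes read with B-Myb, FoxM1 or the pocket proteins, and CCAAT boxes, which NF-Y binds. Promoter windows were taken from RefSeq on build GRCm38.p6, a later build than the mm9 of the submitters' processing notes, and run from 250 bases before to 50 bases after the annotated start. They were matched by symbol for 35 of the 40 genes. The CHR letters TTTGAA, searched on both strands, were found in 28 of 35 windows (80%), against 16.5% of 17492 protein-coding genes. Within 50 bases on either side of the start, a CHR was present in 26 of 35 (74.3%), against 3.96% of protein-coding genes. CCAAT, also searched on both strands, was present in 28 of 35 (80%), against 39%, and both elements together in 24 of 35 (68.6%), against 6.68%. Among 82 windows of other mitosis genes the CHR was in 39%, and among 28 windows of DNA replication genes in 14.3%, while CCAAT was in 59.8% and 60.7% of those windows. These are matches of letters, counted without a test, and other spellings of the elements were not searched.

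**Figure D1:**
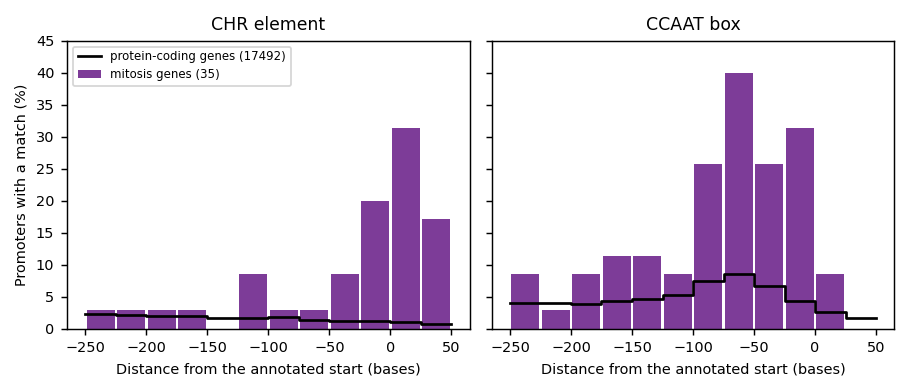
Share of promoter windows (%, vertical axis) with a CHR (TTTGAA, left) or a CCAAT box (right), in bins of 25 bases by distance from the annotated start, for 35 mitosis genes (bars) and 17492 protein-coding genes (black line). The CHR bars are tallest in the bin just after the start, where 31.4% of the mitosis windows and 1.05% of all windows held a match, and the CCAAT bars are tallest from 75 to 50 bases upstream (40% against 8.51%).

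4 windows are shown because their genes lie at the ends of the range of the dF4 library relative to wt, and were chosen after those values were seen. Cdc20, Ube2c and Plk1 had the highest ratios of dF4 to wt among the 40 genes, and Nek2 had the lowest. Capitals mark the CHR and the CCAAT boxes, and a match on the opposite strand stands as its reverse complement. In the Cdc20 window the CHR lay 18 bases upstream of the start, between CCAAT boxes at 53 and 8 bases upstream. In the Ube2c window an antisense CHR lay 29 bases upstream, after 6 CCAAT matches, a pair of which overlap. In the Plk1 window the CHR lay 30 bases downstream of the start. The Nek2 window held no TTTGAA on either strand but CCAAT boxes at 26 bases upstream and 7 downstream.
Cdc20, chr4:118437294-118437593, minus strand: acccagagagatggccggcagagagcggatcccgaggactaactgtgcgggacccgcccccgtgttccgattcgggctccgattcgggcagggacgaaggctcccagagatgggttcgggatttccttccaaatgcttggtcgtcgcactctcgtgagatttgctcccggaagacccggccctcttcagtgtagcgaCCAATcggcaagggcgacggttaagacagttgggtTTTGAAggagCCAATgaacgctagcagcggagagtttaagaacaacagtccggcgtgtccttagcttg
Ube2c, chr2:164769679-164769978, plus strand: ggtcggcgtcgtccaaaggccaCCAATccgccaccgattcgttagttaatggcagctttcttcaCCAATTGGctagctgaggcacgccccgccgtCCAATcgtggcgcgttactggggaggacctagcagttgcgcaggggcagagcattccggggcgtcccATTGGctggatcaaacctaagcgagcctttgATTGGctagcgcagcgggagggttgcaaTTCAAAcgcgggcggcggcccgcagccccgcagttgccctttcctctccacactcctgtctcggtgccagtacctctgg
Plk1, chr7:122159185-122159484, plus strand: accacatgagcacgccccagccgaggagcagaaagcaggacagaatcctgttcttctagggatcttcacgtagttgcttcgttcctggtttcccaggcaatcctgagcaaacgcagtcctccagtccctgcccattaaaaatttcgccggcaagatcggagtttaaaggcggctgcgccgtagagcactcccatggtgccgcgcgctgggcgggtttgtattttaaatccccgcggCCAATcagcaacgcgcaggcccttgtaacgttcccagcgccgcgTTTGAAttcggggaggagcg
Nek2, chr1:191821223-191821522, plus strand: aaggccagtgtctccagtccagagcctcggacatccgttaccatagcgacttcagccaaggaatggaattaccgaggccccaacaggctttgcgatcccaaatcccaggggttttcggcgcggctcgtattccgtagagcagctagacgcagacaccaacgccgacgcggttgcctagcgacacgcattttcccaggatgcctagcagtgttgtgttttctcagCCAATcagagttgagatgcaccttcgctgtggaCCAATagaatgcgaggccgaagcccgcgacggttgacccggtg

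Transcripts of the mitosis genes were present in every library and made up 0.401% of all RPKM in dF4, 0.204% and 0.249% in the dF1 libraries and 0.278% and 0.268% in the wt libraries. The median gene stood at 26.8 RPKM in dF4, 12 and 14.7 RPKM in dF1, and 16.8 and 14.8 RPKM in wt. In wt the levels ran from 1.85 ± 0.495 RPKM (SD, n = 2) for Ccnb1 to 81.2 ± 13.4 RPKM for Top2a, and all 40 genes passed the filter, a mean over the 5 libraries of 1 RPKM or more. Depth was unknown for the dF1 and wt libraries. The low values of the dF4 library were whole multiples of 1.68 RPM (length-corrected) for 81.9% of 3427 values (within 0.1 read), which puts it at about 596000 reads, and each of its values is given with a 95% exact Poisson interval on the estimated reads, which covers counting error only. The mitosis genes had between 2 and 878 such reads, with a median of 53.

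**Figure D2:**
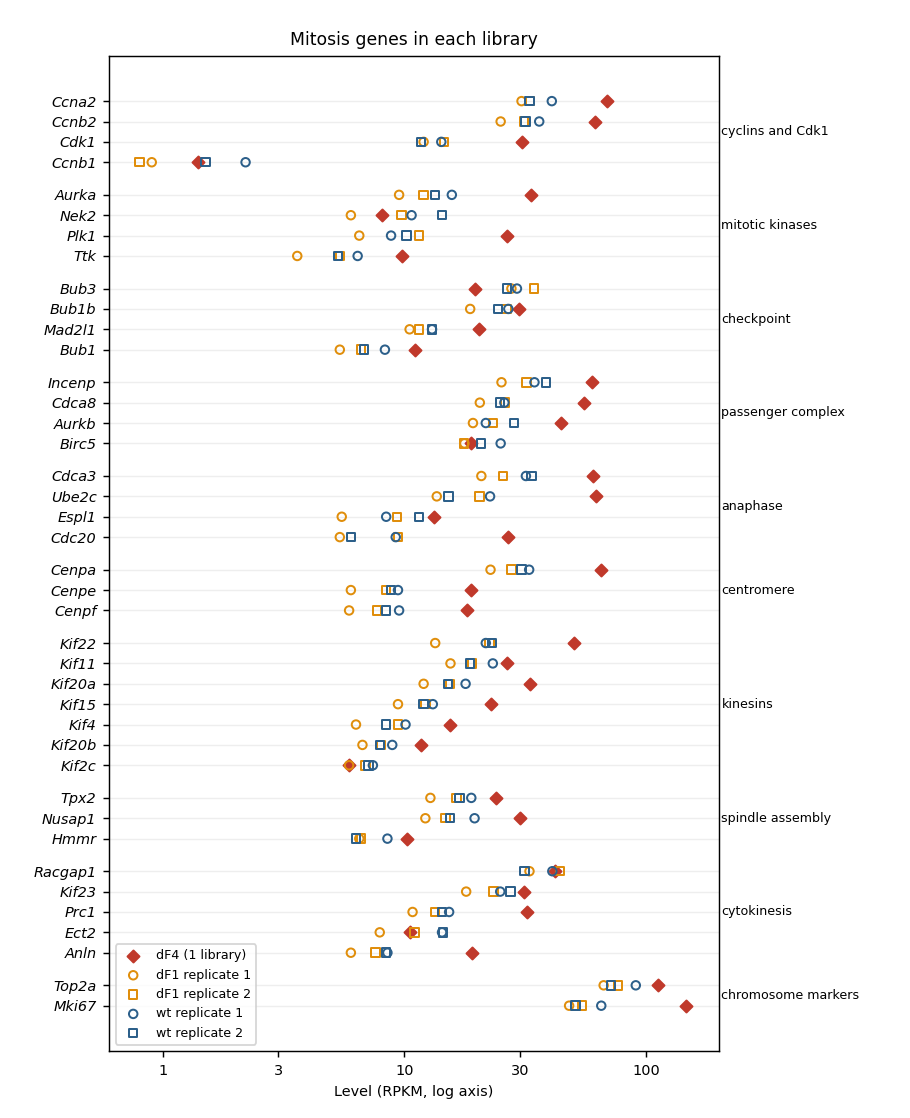
RPKM (log axis) of the 40 mitosis genes, grouped by role, in the dF4 library (red diamonds), the 2 dF1 libraries (orange circles for replicate 1, squares for replicate 2) and the 2 wt libraries (blue circles and squares). The dF4 diamond lies right of both wt points for 34 genes, and the orange circle is leftmost of the 4 dF1 and wt points for 34 genes.

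The sort was a mixture, and its makeup differed between libraries. Ikzf1 itself stood at 237.7 RPKM in dF4, 182.2 and 182.1 RPKM in dF1 and 175.8 and 141.1 RPKM in wt, a whole-transcript value that does not check the loss of 1 zinc finger. Xist, expressed from the inactive X of females, stood at 0 RPKM in dF4, 93.2 and 0 RPKM in dF1 and 77.7 and 83 RPKM in wt, so the libraries differ in sex, within dF1 too, and the part of this in the results was not tested. In wt, Siglech of plasmacytoid dendritic cells stood at 936.2 and 838.4 RPKM, whereas Pax5, the transcription factor of B lineage commitment, stood at 7.8 and 5.4 RPKM, although the labels call the cells proB cells. Summed over 13 markers, plasmacytoid dendritic transcripts came to 888.6 RPKM in dF4, 4542 and 5237 RPKM in dF1 and 5302 and 6078 RPKM in wt, and Cd300c, Cox6a2 and Klk1 were listed at 0 in dF4. Summed over 10 late neutrophil markers, the level was 32170 RPKM in dF4, 194.6 and 808.5 RPKM in dF1 and 387.9 and 1063 RPKM in wt, with no marker listed at 0. The 5 neutrophil primary granule markers summed to 2021 RPKM in dF4, 28.3 and 66.4 RPKM in dF1 and 25.1 and 42.6 RPKM in wt. The 13 erythroid markers summed to 997.9 RPKM in dF4, 135.7 and 150.9 RPKM in dF1 and 169.5 and 220.7 RPKM in wt. The 14 early B lineage markers summed to 1430 RPKM in dF4, 702.8 and 667.4 RPKM in dF1 and 881.7 and 585.2 RPKM in wt. In such bulk samples, fewer cycling cells and less mitotic RNA per cell cannot be told apart.

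The first comparison set dF1 beside wt, to ask what loss of zinc finger 1 does to these transcripts. Most mitosis genes were somewhat lower in dF1, by a median of -0.27 on the log2(RPKM + 1) scale (0.01 over all 12215 transcripts tested). On that scale the change of a gene with a low level comes out too small. The mean was lower in dF1 for 37 of 40 genes, where 48.2% of all transcripts had a lower mean. Both dF1 libraries lay below both wt libraries for 19 of 40 genes, against 17.9% of all transcripts, and above both for 0 of 40, against 16.8%. The differences ran between -0.63 (Nek2) and 0.14 (Bub3).

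None of the 40 passed the test. Over all transcripts limma called 0 higher (0%) and 0 lower (0%) at adjusted p 0.05, and the adjusted p of the mitosis genes lay between 0.596 and 0.979. At an unadjusted p under 0.05, 3 mitosis genes were lower and 0 higher, where 4.05% of all transcripts were lower (495) and 3.11% higher (380). The 3 were Ccnb1, Cdca3 and Ect2.

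The difference lay mainly in 1 of the 2 dF1 libraries. In dF1 replicate 1 all 40 genes were below the wt mean, with a median of -0.42, and 34 of 40 were lowest there among the 4 dF1 and wt libraries, against 27.9% of all transcripts. In dF1 replicate 2 the median was -0.11, with 30 of 40 below the wt mean and 19 of 40 below both wt libraries, against 28% of all transcripts. Of the other 6, Ccnb1 and Birc5 were lowest in dF1 replicate 2 (2 of 40, against 17.4% of all transcripts). Cdk1, Bub3, Hmmr and Racgap1 were lowest in wt replicate 2 (4 of 40, against 37.6%), and 0 of 40 in wt replicate 1 (against 11.1%). Without dF1 replicate 1 the median was -0.11 and 30 of 40 were lower, and without dF1 replicate 2 it was -0.42 and 40 of 40 were lower. The medians of the wt libraries were 0.08 and -0.08. Late neutrophil markers also stood lowest in dF1 replicate 1, for 10 of 10 genes, as did 5 of 13 erythroid markers, whereas the primary granule sum was lower in wt replicate 1. The erythroid sum of the dF1 and wt libraries rests mostly on Tfrc and Car2. Tfrc, the transferrin receptor, was at 65.3 and 66.9 RPKM in dF1 and 111.5 and 152.6 RPKM in wt. Without Tfrc, left out after its values were seen, the other 12 summed to 70.4 and 84 RPKM in dF1 and 58 and 68.1 RPKM in wt. Much of that sum was Car2, at 66.1 and 60.8 RPKM in dF1 and 51 and 31.2 RPKM in wt. The median difference of the 13 erythroid markers from the wt mean was -0.52 and 0.19 in dF1 and -0.43 and 0.43 in wt. NK markers had a higher mean in dF1 for 11 of 11 genes, with a median of 0.66, and summed to 2331 and 2084 RPKM in dF1 and 2076 and 921.3 RPKM in wt. All 11 were lowest in wt replicate 2. T cell markers had a higher mean in dF1 for 6 of 6 genes, with a median of 0.37, and summed to 264.3 and 229.7 RPKM in dF1 and 239.4 and 144.6 RPKM in wt. Xist stood at 93.2 RPKM in dF1 replicate 1 and 0 RPKM in dF1 replicate 2, so the dF1 libraries also differ in sex. The part of neutrophil, erythroid, NK and T cells, or of sex, in the mitosis difference was not tested.

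**Figure D3:**
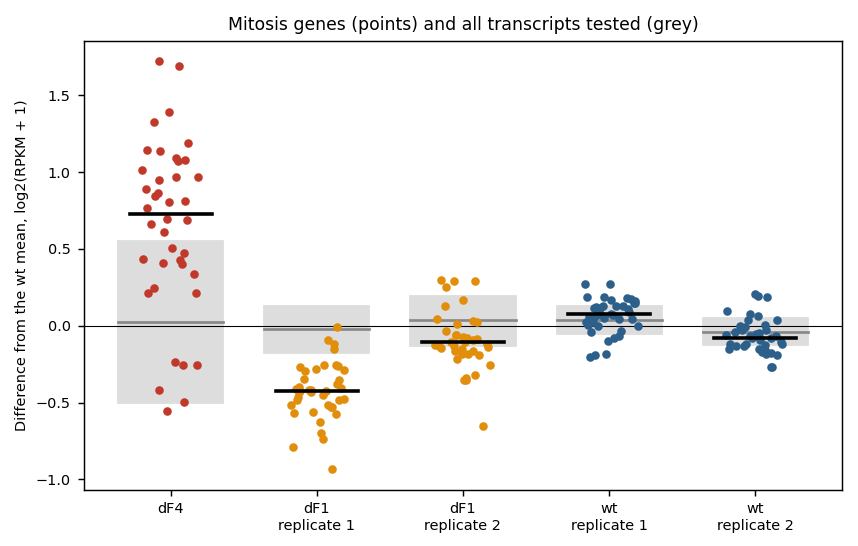
Difference of each library from the wt mean on the log2(RPKM + 1) scale (vertical axis) for the 40 mitosis genes (points, black bar at the median) and for all 12215 transcripts tested (grey box from lower to upper quartile, grey bar at the median). The points center on 0.73 in dF4, -0.42 in dF1 replicate 1 and -0.11 in dF1 replicate 2.

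Among the cyclins and their kinase, Ccna2, which encodes cyclin A2, was at 30.5 and 33 RPKM in dF1 and 40.7 and 32.9 RPKM in wt. The groups overlap, since dF1 replicate 2 lies just above wt replicate 2. Ccnb2, another B-type cyclin, was at 25 and 31.3 RPKM in dF1 and 36.1 and 31.7 RPKM in wt, with no overlap. Cdk1, the kinase itself, was at 12 and 14.6 RPKM in dF1 and 14.2 and 11.7 RPKM in wt, a difference of 0.04 (SE 0.17). Ccnb1, which encodes cyclin B1, was at 0.9 and 0.8 RPKM in dF1 and 2.2 and 1.5 RPKM in wt, a difference of -0.61 (SE 0.18, limma adjusted p = 0.596). Its level was far under that of Ccnb2 in every library. Ccnb1 matched transcripts of 4 other genes in the GENCODE M21 annotation over at least 50% of its length at 90% identity or more, the best of them the processed pseudogene Gm12856 (51.9% of its length at 98.1% identity). The sources used here do not tell how reads with several matches were counted, so the Ccnb1 values are uncertain.

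The mitotic kinases were lower on average in dF1, without passing. Nek2, a centrosome kinase, was at 6 and 9.7 RPKM in dF1 and 10.7 and 14.3 RPKM in wt, a difference of -0.63 (SE 0.26, limma adjusted p = 0.704). It had the largest difference of the 40 genes on this scale, whereas with a pseudocount of 0.1 that of Ccnb1 was larger (-1.02, against -0.69 for Nek2). Aurka, the Aurora kinase of the spindle poles, was at 9.5 and 12 RPKM in dF1 and 15.7 and 13.4 RPKM in wt. In both genes the groups do not overlap. Plk1, the Polo kinase, was at 6.5 and 11.5 RPKM in dF1 and 8.8 and 10.2 RPKM in wt, so that 1 dF1 library was below and the other above both wt libraries. Ttk, the checkpoint kinase Mps1, was at 3.6 and 5.4 RPKM in dF1 and 6.4 and 5.3 RPKM in wt, which overlap.

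Of the spindle checkpoint genes, Bub1, a kinetochore kinase, was at 5.4 and 6.6 RPKM in dF1 and 8.3 and 6.8 RPKM in wt. Mad2l1, which encodes the Cdc20 inhibitor Mad2, was at 10.5 and 11.5 RPKM in dF1 and at 13 RPKM in both wt libraries. Neither gene overlaps between the groups, with differences of -0.29 (SE 0.18) and -0.22 (SE 0.13). Bub3, the partner of Bub1 and BubR1, was at 27.7 and 34.4 RPKM in dF1 and 29.2 and 26.6 RPKM in wt. Bub1b, which encodes the checkpoint protein BubR1, was at 18.7 and 26.4 RPKM in dF1 and 26.9 and 24.4 RPKM in wt, which overlap. Bub3 was 1 of 3 genes with a higher mean in dF1, beside Cdk1 and Racgap1.

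The chromosomal passenger complex joins the kinase Aurora B to Incenp, survivin and borealin at centromeres. Incenp, the scaffold, was at 25.2 and 32 RPKM in dF1 and 34.5 and 38.6 RPKM in wt, without overlap (difference -0.35, SE 0.16, limma adjusted p = 0.734). Birc5, which encodes survivin, was at 17.7 and 17.6 RPKM in dF1 and 25 and 20.7 RPKM in wt, and its second transcript was also below both wt libraries, at 9 and 9.9 RPKM against 12 and 11.1 RPKM. Cdca8, which encodes borealin, was at 20.5 and 26 RPKM in dF1 and 25.9 and 24.9 RPKM in wt. Aurkb was at 19.2 and 23.2 RPKM in dF1 and 21.7 and 28.4 RPKM in wt. The last 2 overlap between the groups.

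At anaphase, Cdca3, a trigger of mitotic entry through protein degradation, was at 20.8 and 25.6 RPKM in dF1 and 31.8 and 33.5 RPKM in wt, without overlap (difference -0.48, SE 0.14, limma adjusted p = 0.596). Cdc20, the activator of the anaphase-promoting complex, was at 5.4 and 9.4 RPKM in dF1 and 9.2 and 6 RPKM in wt, a spread that covers the same range in both groups. Ube2c, the conjugating enzyme of that complex, was at 13.6 and 20.4 RPKM in dF1 and 22.6 and 15.2 RPKM in wt, which overlap. Espl1, which encodes separase, was at 5.5 and 9.3 RPKM in dF1 and 8.4 and 11.5 RPKM in wt.

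The 3 centromere genes are among the 19 with both dF1 libraries below both wt libraries, an order found in 17.9% of all transcripts. Cenpa, the histone variant that marks centromeres, was at 22.7 and 27.7 RPKM in dF1 and 32.8 and 30.5 RPKM in wt. Cenpf, a large kinetochore protein, was at 5.9 and 7.7 RPKM in dF1 and 9.5 and 8.4 RPKM in wt, and the kinetochore motor Cenpe was at 6 and 8.4 RPKM in dF1 and 9.4 and 8.8 RPKM in wt. Their differences lay between -0.36 and -0.32. The kinesin group of 7 genes, whose products move chromosomes and slide spindle microtubules, leaves out the motors Cenpe and Kif23. Of the 7 in the group, 7 were lowest in dF1 replicate 1, as were 27.9% of all transcripts. Kif22, a chromosome-bound kinesin, was at 13.4 and 22.5 RPKM in dF1 and 21.7 and 23 RPKM in wt, so its difference of -0.34 (SE 0.25) rests on that library. The other 6 lay between -0.27 (Kif11, the bipolar spindle motor) and -0.16 (Kif2c, a microtubule depolymerase).

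Among the spindle assembly factors, Tpx2, the activator of Aurora A, was at 12.8 and 16.4 RPKM in dF1 and 18.9 and 16.9 RPKM in wt. Nusap1, a microtubule bundler, was at 12.2 and 14.8 RPKM in dF1 and 19.5 and 15.4 RPKM in wt. Both were free of overlap, unlike Hmmr, a spindle pole protein, at 6.5 and 6.6 RPKM in dF1 and 8.5 and 6.3 RPKM in wt. In cytokinesis, Ect2, the exchange factor that activates RhoA at the cleavage furrow, was at 7.9 and 11 RPKM in dF1 and 14.3 and 14.4 RPKM in wt (difference -0.57, SE 0.18, limma adjusted p = 0.638). Anln, which encodes the furrow scaffold anillin, was at 6 and 7.6 RPKM in dF1 and 8.5 and 8.4 RPKM in wt. Kif23, the motor of the central spindle, was at 18 and 23.4 RPKM in dF1 and 24.9 and 27.4 RPKM in wt, also without overlap. Its partner Racgap1 was at 32.9 and 44.1 RPKM in dF1 and 40.9 and 31.4 RPKM in wt, which overlap. Of the chromosome markers, Mki67, which encodes the Ki-67 antigen, was at 48 and 54.3 RPKM in dF1 and 65.2 and 51.1 RPKM in wt. Top2a, the topoisomerase that untangles sister chromatids, was at 66.7 and 76.3 RPKM in dF1 and 90.6 and 71.7 RPKM in wt. Both markers overlap between the groups.

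**Figure D4:**
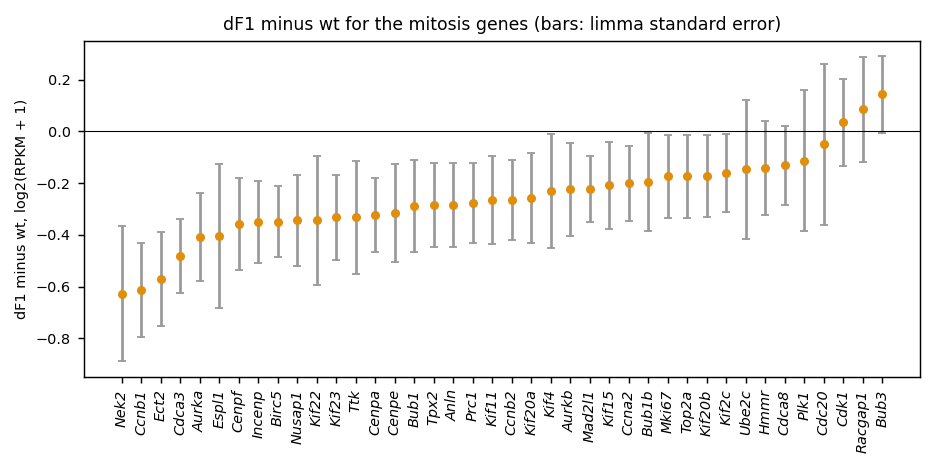
Difference of dF1 from wt on the log2(RPKM + 1) scale (vertical axis) for each of the 40 mitosis genes, ordered by size, with bars for the limma standard error (2 libraries in each group). All but Cdk1, Racgap1 and Bub3 lie below 0, and none passed the test.

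Other genes of the mitotic machinery, from lists of 102 genes of which 97 were tested, showed a median of -0.19 between dF1 and wt. Of the 97, limma called 0 in either direction. At an unadjusted p under 0.05, 9 of 97 were lower, against 4.05% of all transcripts, and 1 was higher, against 3.11%. The median was -0.28 for 32 spindle, entry and cytokinesis genes, -0.19 for 30 kinetochore genes, -0.15 for 21 condensin, cohesin and securin genes and 0.01 for 14 genes of the anaphase-promoting complex. Cdc25c, a phosphatase that activates Cdk1, was at 1.1 and 2.8 RPKM in dF1 and 4 and 5.1 RPKM in wt (difference -0.97, SE 0.32, limma adjusted p = 0.647). The cohesin protector Sgo1 was at 1.6 and 2.7 RPKM in dF1 and 4.1 and 3.3 RPKM in wt, and the kinetochore gene Cenpk at 3.4 and 2.5 RPKM in dF1 and 4.6 and 4.1 RPKM in wt. Nde1, a dynein regulator named after its values were seen, went the other way, at 77.5 and 99.5 RPKM in dF1 and 50.9 and 49.5 RPKM in wt (0.79, SE 0.15, limma adjusted p = 0.363). In the anaphase-promoting complex list, differences of equal size and opposite sign were those of the small subunit Cdc26 and the inhibitor Fbxo5. Cdc26 was at 5.1 and 6.8 RPKM in dF1 and 5.6 and 3 RPKM in wt, which overlap (0.42). Fbxo5, named after its values were seen, was at 8.3 and 11.7 RPKM in dF1 and 13 and 14.2 RPKM in wt, without overlap (-0.42).

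The genes that act before mitosis had medians closer to wt. For 35 DNA replication genes the median difference of dF1 from wt was -0.00, with 18 lower and 17 higher, where 48.2% of all transcripts were lower. As with the mitosis genes, many were lowest in dF1 replicate 1, 19 of 35, against 27.9% of all transcripts. Their median difference from the wt mean was -0.14 in that library and 0.06 in dF1 replicate 2. Ung, a uracil glycosylase, differed most, at 9.7 and 11.3 RPKM in dF1 and 12.8 and 14.5 RPKM in wt. The 20 regulators of the E2F, MuvB and FoxM1 kind had a median of -0.01. The repressor E2f8 was at 11.1 and 15.1 RPKM in dF1 and 15.6 and 19.6 RPKM in wt, while Foxm1, the activator of late cell cycle genes, was at 21.3 and 27.3 RPKM in dF1 and 21.8 and 26.6 RPKM in wt. Of 8 cyclins and kinases of the G1 phase, 6 were higher in dF1, as were 6279 of all 12215 transcripts. Ccnd2 was at 45.2 and 49 RPKM in dF1 and 42.9 and 25 RPKM in wt. Of 7 inhibitors of cyclin-dependent kinases 3 were tested, and Cdkn2c was at 15.5 and 21.1 RPKM in dF1 and 23.2 and 27.6 RPKM in wt. In all of these lists limma called 0 genes, and whether mitosis genes differ from replication genes in their response was not tested.

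The dF4 library was then compared with wt, which with 1 library allows no test. Most mitosis genes were higher in dF4, by a median of 0.73 on the log2(RPKM + 1) scale (0.02 over all transcripts tested). The dF4 value was above both wt libraries for 34 of 40 genes, against 44.7% of all transcripts, and below both for 6 of 40, against 42.3%. It was the highest of the 5 libraries for 33 of 40 genes, against 40.3%. A difference of at least 1 on the log2 scale, outside both wt libraries, was met upward by 11 of 40 genes, against 13.4% of all transcripts, and downward by 0 of 40, against 12.9%. For 23 of 40 genes the whole Poisson interval of dF4 lay above both wt libraries, against 20% of all transcripts, and for 0 of 40 below them, against 13.7%.

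The highest ratios were those of Cdc20, Ube2c and Plk1, whose promoter windows are shown with the motifs. Cdc20 was at 26.9 RPKM in dF4 (interval 18.2 to 38.9, about 29 reads) and 9.2 and 6 RPKM in wt, a ratio of 3.54. Ube2c was at 62.3 RPKM in dF4 (43.6 to 87.1) and 22.6 and 15.2 RPKM in wt, a ratio of 3.3, and Plk1 at 26.5 RPKM in dF4 (18.5 to 36.9) and 8.8 and 10.2 RPKM in wt, a ratio of 2.79. For these 3 genes GENCODE M21 lists a pseudogene that matches at least 50% of the transcript at 90% identity or more (Gm7856, Gm8956 and Plk-ps1), so that their values carry the uncertainty described for Ccnb1, as do those of Kif11 and Kif2c. In the other 34 genes no such copy was found. Some had shorter matches to processed pseudogenes, among them Mad2l1 (42.2% of the transcript at 92% identity) and Bub3 (40.6% at 92.8% identity).

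Genes without such a copy also stood higher. Mki67 was at 146 RPKM in dF4 (136 to 156, about 878 reads) and 65.2 and 51.1 RPKM in wt, a ratio of 2.51. Cdk1 was at 30.7 RPKM in dF4 (23.2 to 40.5) and 14.2 and 11.7 RPKM in wt. Aurka was at 33.3 RPKM in dF4 (23.6 to 45.7) and 15.7 and 13.4 RPKM in wt. In all 3 the interval clears both wt libraries. Kif22 was at 50.4 RPKM in dF4 (38.4 to 64.1) and 21.7 and 23 RPKM in wt, Anln at 19 RPKM (14.6 to 24.5) and 8.5 and 8.4 RPKM, and Cdca8 at 55.2 RPKM (41.6 to 72.2) and 25.9 and 24.9 RPKM. Cenpa was at 64.8 RPKM in dF4 (48.5 to 85.2) and 32.8 and 30.5 RPKM in wt, and Prc1, which bundles the central spindle, at 32.2 RPKM in dF4 (24.4 to 41.6) and 15.3 and 14.3 RPKM. These 11 genes, from Cdc20 to Prc1, are those past the size rule. Cenpf was just short of it, with a difference of 0.95, at 18.2 RPKM in dF4 (15.1 to 21.8) and 9.5 and 8.4 RPKM in wt.

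Smaller ratios were seen for other genes. Ccna2 was at 68.7 RPKM in dF4 (56.5 to 82.1) and 40.7 and 32.9 RPKM in wt, Incenp at 59.7 RPKM (49.2 to 71.5) and 34.5 and 38.6 RPKM, and Cdca3 at 60.3 RPKM (45.5 to 79.1) and 31.8 and 33.5 RPKM. Top2a was at 112.1 RPKM in dF4 (101 to 124) and 90.6 and 71.7 RPKM in wt, a ratio of 1.38, set beside 2.51 for Mki67. Nusap1 was at 30.2 RPKM in dF4 (22.7 to 39.8) and 19.5 and 15.4 RPKM in wt. For Tpx2, at 24 RPKM in dF4 (18.4 to 31) and 18.9 and 16.9 RPKM in wt, and for Bub1, at 11.1 RPKM (7.47 to 16) and 8.3 and 6.8 RPKM, the interval reaches into the wt range. The same held for Mad2l1, at 20.4 RPKM in dF4 (12.6 to 31.1) and 13 RPKM in both wt libraries, and for Racgap1, at 41.8 RPKM (32.9 to 52.3) and 40.9 and 31.4 RPKM. The other 13 genes above both wt libraries had differences between 0.22 (Bub1b) and 0.97 (Cenpe and Kif20a), and in 6 of them the interval cleared both wt libraries.

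Of the 40 genes, 6 were below both wt libraries in dF4, and for each of them the interval overlaps the wt values. Nek2 was at 8.1 RPKM in dF4 (4.39 to 12.9) and 10.7 and 14.3 RPKM in wt, a ratio of 0.648. Bub3 was at 19.5 RPKM (12.5 to 29) and 29.2 and 26.6 RPKM, and Ect2 at 10.5 RPKM (6.77 to 15.4) and 14.3 and 14.4 RPKM. Birc5 was at 18.9 RPKM (9.43 to 33.8) and 25 and 20.7 RPKM, Kif2c at 5.9 RPKM (2.82 to 10.8) and 7.4 and 7.1 RPKM, and Ccnb1 at 1.4 RPKM (0.175 to 5.21, about 2 reads) and 2.2 and 1.5 RPKM. The promoter windows of 3 of these 6 genes held the letters TTTGAA, against 25 of the 29 windows of genes above both wt libraries. This count is given without a test, and other spellings of the CHR were not searched.

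The rest of the cell cycle differed from wt unevenly in dF4. The median difference was 0.31 over the 97 other mitosis genes, 0.41 over the 35 DNA replication genes and 0.17 over the 20 E2F, MuvB and FoxM1 regulators. Of the 97, 10 passed the size rule upward, against 13.4% of all transcripts, and 1 downward, against 12.9%. The 1 downward was the kinetochore gene Cenpu, named after its values were seen. It was at 1.4 RPKM in dF4 (0.164 to 4.88, about 2 reads) and 7.5 and 7 RPKM in wt. E2f2, an E2F activator, was at 63.4 RPKM in dF4 (54.3 to 73.2) and 12.2 and 12.7 RPKM in wt, a ratio of 5.09, while Foxm1 was at 27.6 RPKM (21.6 to 34.8) and 21.8 and 26.6 RPKM. Cdt1, which licenses replication origins, was at 44 RPKM in dF4 (33.6 to 57.1) and 13.1 and 12.1 RPKM in wt. Fzr1, the activator of the anaphase-promoting complex after mitosis, was at 82.4 RPKM (67.5 to 98.8) and 28.4 and 33.1 RPKM. Ccnd1, which encodes cyclin D1, was at 6.6 RPKM in dF4 (3.7 to 10.9) and 123.4 and 139.3 RPKM in wt. It was the only one of 8 G1 genes to pass the size rule, downward. Among tested genes, the largest differences of their lists were also those of Cenpw, Depdc1b, Smc2 of condensin and the kinase inhibitor gene Cdkn1a. Cenpw, which passed the filter on low values, was at 7.8 RPKM in dF4 (3.11 to 16, about 7 reads) and 1 RPKM in both wt libraries. Depdc1b was at 20.5 RPKM in dF4 (13.9 to 29) and 7.8 and 6.6 RPKM in wt. Smc2 was at 35.1 RPKM (28.9 to 42.3) and 22.3 and 18.9 RPKM, and Cdkn1a at 7.8 RPKM (3.56 to 14.8) and 4.1 and 4.4 RPKM.

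**Figure D5:**
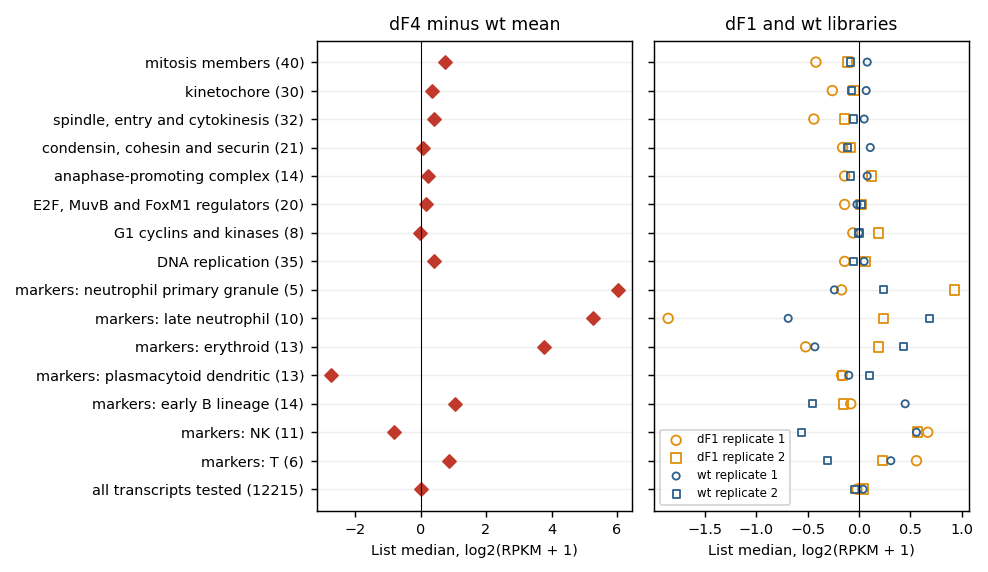
Median over each list of the difference from the wt mean on the log2(RPKM + 1) scale (horizontal axes, which differ in range), with the number of genes tested in brackets, for dF4 (left, red diamonds) and for the dF1 libraries (orange) and wt libraries (blue) by replicate (right). In dF4 the mitosis genes lie at 0.73, the primary granule markers at 6.02, the erythroid markers at 3.78 and the plasmacytoid dendritic markers at -2.73.

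Markers of neutrophil and erythroid cells were further from wt in dF4 than the mitosis genes. The median difference from wt was 6.02 for the 5 primary granule markers, which early neutrophil precursors make, 5.28 for the 10 late neutrophil markers, 3.78 for the 13 erythroid markers and 1.06 for the 14 early B lineage markers. It was -2.73 for the 13 plasmacytoid dendritic markers and -0.81 for the 11 NK markers. Of the 13 erythroid markers, 12 were above both wt libraries in dF4. Tfrc was below them, at 36.9 RPKM in dF4 (30.4 to 44.7) and 111.5 and 152.6 RPKM in wt. The early B lineage markers were mixed, with differences between -3.60 and 3.66. Of these 14, 9 were above both wt libraries and 3 below both. Mpo, a primary granule enzyme, was at 772.9 RPKM in dF4 (729 to 818) and 12.8 and 22.5 RPKM in wt. The part of these cells in the mitosis values was not tested. Xist stood at 0 RPKM in dF4 and 77.7 and 83 RPKM in wt. With 1 library, the genotype, the sex and the makeup of that sort cannot be told apart.

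Set beside dF1, the dF4 library was higher for 35 of 40 genes than both dF1 libraries, against 45.2% of all transcripts, with a median difference of 1.03. A difference of at least 1 outside both dF1 libraries was met upward by 21 of 40, against 13.5% of all transcripts, and downward by 0 of 40, against 12.7%. Plk1 was at 26.5 RPKM in dF4 and 6.5 and 11.5 RPKM in dF1. Aurka was at 33.3 RPKM in dF4 and 9.5 and 12 RPKM in dF1. Nek2, at 8.1 RPKM in dF4 and 6 and 9.7 RPKM in dF1, lay within the dF1 range. The median was 0.86 without dF1 replicate 1 and 1.18 without dF1 replicate 2.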

How the data were processed

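Transcript levels were measured by RNA-seq (Illumina TruSeq on mRNA-enriched total RNA, per the labels' protocols) in 1 dF4, 2 dF1 and 2 wt libraries, grouped by their titles. The authors deposited RPKM per RefSeq transcript, written to 1 decimal, per the file headers. TopHat, bedtools and the build mm9 are named, with no versions, in the submitters' processing notes. The sources used here do not say whether counting used strand or how reads with several matches were treated, so overlapping genes (Nek2, Prc1, Kif20a, Kif4 and Ccna2 share sequence with an antisense neighbor) cannot be separated. Gapdh was between 0.2 and 0.5 RPKM in every library, and values of genes with close copies are uncertain. 1 line named no gene and was left out.

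The dF1 and wt libraries were compared on log2(RPKM + 1) by limma's moderated test (version 3.58.1, R 4.3.3, two-sided, with an intensity trend in the variance). It covered the 12215 transcripts whose mean over the 5 libraries reached 1 RPKM, and p-values were adjusted by Benjamini-Hochberg over all of these (threshold 0.05). The fit was also run on simulated data, with planted differences larger than any between dF1 and wt in the mitosis genes. That run does not tell whether differences of their size could be called. dF4 was described without a test, by a difference of at least 1 outside both libraries of the other group. Copies were sought with BLAST among GENCODE M21 transcripts (at least 90% identity over 50% of the length). Full values are given for the gene with the highest wt mean and those with the largest difference in each contrast, by role, and for the largest differences of each other list. Other genes were named after their values were seen. The mitosis genes, the lists and the tests were chosen with earlier results of these data known. Alternatives were other pseudocounts, filters and normalizations, robust variances, the replicate number as a block, and leaving out each replicate.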

Additional observations from a re-analysis of the deposited data

How the results depend on the processing

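The number of transcripts called between dF1 and wt depended on the setting. It was 0 in the design as stated and 25 (13 higher and 12 lower) with a filter at 5 RPKM. It was 33 (16 higher and 17 lower) with robust variances and 245 (93 higher and 152 lower) with no filter. The settings were followed for the 23 mitosis genes with the highest wt level or the largest difference in their role. Of these 23, 0 were among the calls in any setting. The cause was not tested. With the replicate number as a block, limma called 0 transcripts and the median of the mitosis genes stayed at -0.27. The deviations of same-numbered libraries correlated at 0.305 over transcripts, but with 2 pairs the labels give no pairing, so the samples share only a number. The median dF1 difference lay between -0.28 and -0.19 under other pseudocounts, filters and normalizations, and between -0.42 and -0.11 when a replicate was left out, with 30 to 40 genes lower. The dF4 median lay between 0.65 and 0.77 under other pseudocounts, filters and normalizations, with 0.66 after either normalization, and between 0.68 and 0.79 without a wt replicate. Of the 23 genes, 9 passed the size rule upward in dF4, and 8 to 11 did without a wt replicate. Ube2c and Prc1, which also passed it, are not among the 23. With a pseudocount of 5 it was 4, as a larger pseudocount shrinks every difference. When a replicate was left out, the sign of the dF1 difference was not kept for Cdc20 (-0.40 to 0.30), Plk1 (-0.48 to 0.25), Kif22 (-0.70 to 0.01), Cdca8 (-0.30 to 0.03), Cdk1 (-0.10 to 0.17), Racgap1 (-0.12 to 0.29) and Bub3 (-0.01 to 0.29). The depth of dF4, about 596000 reads, limits the genes with few reads, among them Ccnb1.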
